A study of Homo sapiens with 12 samples.

Results

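The urea cycle and the first steps of amino acid breakdown were followed through 10 genes, read as the lines of the gene table whose gene name was CPS1, OTC, ASS1, ASL, ARG1, GLUL, GLS2, HAL, TAT or TDO2. These are 10 of 40825 lines. The table held RNA-seq read counts and FPKM (reads scaled to gene length and sequencing depth) for 12 libraries of 2 human hepatocellular carcinoma cell lines, both labelled wild type (WT), and total counts per library ran from 70236175 to 75820318. Huh7 cells were given the solvent DMSO (3 libraries) or lenvatinib (3 libraries), and PLC/PRF/5 cells were given DMSO (3 libraries) or lenvatinib (3 libraries). Lenvatinib is an oral inhibitor of several receptor tyrosine kinases, among them the VEGF and FGF receptors, used against liver cancer. PLC/PRF/5 carries integrated hepatitis B virus DNA. Each line stands for 1 tumour. The dose, the duration and whether the 3 libraries of a group came from separate cultures are not given in the labels, so p-values measure only the spread between these libraries.

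The urea cycle turns ammonia released from amino acids into urea and runs as a complete cycle in hepatocytes. CPS1 and OTC work in the mitochondrion, where CPS1 makes carbamoyl phosphate and OTC joins it to ornithine to give citrulline. ASS1, ASL and ARG1 work in the cytosol and carry citrulline through argininosuccinate and arginine to urea and ornithine. In the liver lobule, hepatocytes near the portal vein hold the cycle and the liver glutaminase GLS2, while those around the central vein hold glutamine synthetase, GLUL, which takes up the ammonia that escapes. HAL, TAT and TDO2 start the breakdown of histidine, tyrosine and tryptophan. By the GENCODE 29 annotation, CPS1 lies on chromosome 2, OTC on X, ASS1 on 9, ASL on 7, ARG1 on 6, GLUL on 1, GLS2 and HAL on 12, TAT on 16 and TDO2 on 4.

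Promoter sequence is shown for ASS1, HAL and TDO2, the 3 of the 10 with the largest called changes in Huh7 under lenvatinib, described further on. Each line gives 200 bases, from 250 to 51 bases before the annotated start, on the gene's strand, from RefSeq (GRCh38.p14). Capitals mark matches to 4 motifs searched on both strands: TTNCNNAA for C/EBP factors, CACGTG (an E-box), TGACGTCA (the cyclic AMP response element) and TGATGNAAN (the amino acid response element). No matches overlapped. No capitals means no match in this window.
ASS1, chr9:130444711-130444910, plus strand: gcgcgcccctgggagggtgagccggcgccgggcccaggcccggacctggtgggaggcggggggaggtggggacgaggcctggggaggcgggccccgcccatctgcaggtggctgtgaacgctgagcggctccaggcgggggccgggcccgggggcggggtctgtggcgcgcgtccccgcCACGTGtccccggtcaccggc
HAL, chr12:95996395-95996594, minus strand: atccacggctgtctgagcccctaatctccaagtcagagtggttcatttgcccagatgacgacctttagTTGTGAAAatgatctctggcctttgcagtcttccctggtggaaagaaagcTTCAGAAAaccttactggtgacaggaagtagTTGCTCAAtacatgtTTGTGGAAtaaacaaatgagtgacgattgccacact
TDO2, chr4:155903446-155903645, plus strand: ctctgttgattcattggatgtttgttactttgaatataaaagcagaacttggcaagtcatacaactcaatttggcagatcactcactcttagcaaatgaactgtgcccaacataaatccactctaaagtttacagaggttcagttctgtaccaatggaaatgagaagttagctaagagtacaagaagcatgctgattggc

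The ASS1 window shown is that of the second of its RefSeq starts, and the window of its other start held no match. The window shown held the E-box at 71 to 66 bases before the start, and 4.51% of 35116 promoter windows of this length hold CACGTG. The HAL window held 4 matches to TTNCNNAA, a short motif found in 29.3% of the windows. The TDO2 window held no match. RefSeq promoters were matched for 9 of the 10 genes, and 4 of the 9 (CPS1, OTC, ASS1 and HAL) had at least 1 match in a window. The cyclic AMP element occurred in 0.951% of all windows and the amino acid response element in 2.49%. A match is a run of letters and was not tested for binding.

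The lines differed first in which urea cycle enzymes were at a high level. PLC/PRF/5 cells held 2 cycle enzymes at a very high level under DMSO: ASS1 ranked 41 and CPS1 ranked 108 by mean FPKM among the 15587 genes that averaged 0.5 FPKM or more over the 12 libraries. In Huh7 under DMSO the same genes ranked 4544 and 15058, while GLUL ranked 2148. OTC and ARG1 were near 0 in both lines: OTC reached at most 0.195 FPKM and ARG1 at most 0.20 FPKM in any library. The plot of FPKM by library shows all 10 genes on 1 scale.

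**Figure D1:**
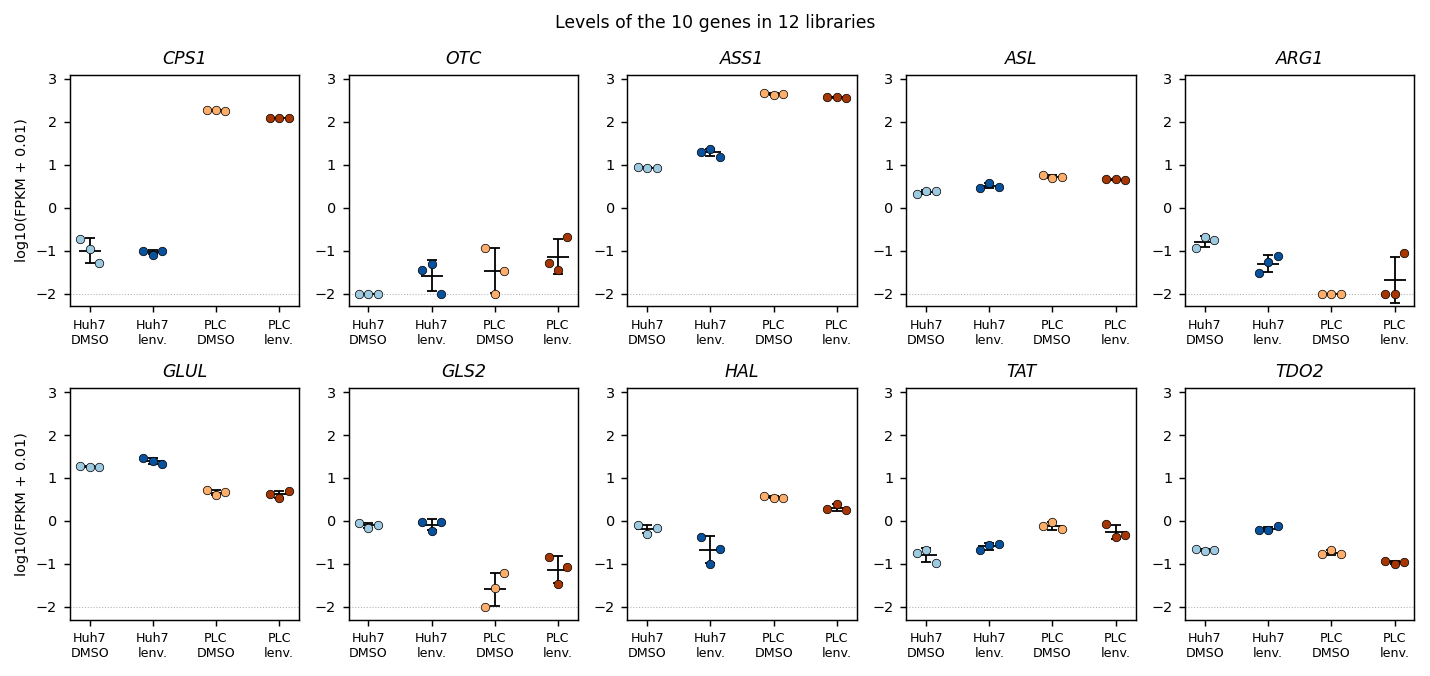
Level of each of the 10 genes in 12 libraries, as log10(FPKM + 0.01), with points for libraries, a bar for the mean and whiskers for 1 SD over the 3 libraries of a group (lenv., lenvatinib). CPS1 sits near 0.1 FPKM in Huh7 and between 123 and 190 FPKM in PLC/PRF/5, while OTC and ARG1 lie at the bottom in both lines (the dotted line marks a value of 0).

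CPS1, the rate-limiting entry enzyme, showed the widest gap of the 5 genes in the main test. Its counts in Huh7 were 164, 96 and 41 under DMSO and 85, 70 and 84 under lenvatinib. In PLC/PRF/5 they were 181061, 170164 and 169488 under DMSO and 114496, 118646 and 113483 under lenvatinib. No library of one line came near the other line. Under DMSO the level was 1756-fold higher in PLC/PRF/5 (log2 10.78 ± 0.43, SE; edgeR quasi-likelihood adjusted p = 5.61e-09). In bulk RNA, fewer cells of a type and less RNA per cell cannot be told apart, here or below.

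ASS1, which condenses citrulline with aspartate, held 8.70, 8.53 and 8.48 FPKM in Huh7 under DMSO and 456, 414 and 432 FPKM in PLC/PRF/5 under DMSO. The groups did not overlap, and ASS1 was 50.5-fold higher in PLC/PRF/5 (log2 5.66 ± 0.14, SE; edgeR adjusted p = 2.40e-10). ASL, the lyase that splits argininosuccinate into arginine and fumarate, held 2.03, 2.43 and 2.45 FPKM in Huh7 and 5.70, 4.99 and 5.05 FPKM in PLC/PRF/5 under DMSO. This was a 2.27-fold difference (log2 1.18 ± 0.12, SE; edgeR adjusted p = 4.75e-06), far smaller than for the enzyme just before it in the cycle. Reads of ASL could be shared with an overlapping annotated gene on the same strand.

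OTC was at 0 counts in the 3 Huh7 DMSO libraries, and the 3 PLC/PRF/5 DMSO libraries held 15, 0 and 4 counts. Under lenvatinib the counts were 4, 6 and 0 in Huh7 and 6, 4 and 28 in PLC/PRF/5. These are few reads among at least 70236175 counts a library, and OTC passed neither filter on low values and was not tested. ARG1, which releases urea from arginine, had 22, 40 and 36 counts in Huh7 under DMSO and 0 in each of the 3 PLC/PRF/5 DMSO libraries. Against a floor of 3 counts over the group, ARG1 was at least 31.8-fold higher in Huh7. The mitochondrial arginase ARG2, which has the same activity and is not liver-specific, held more reads: 3.93 ± 0.39 FPKM in Huh7 and 11.2 ± 0.81 FPKM in PLC/PRF/5 under DMSO (SD, n = 3 each; log2 1.51 ± 0.12, SE; edgeR adjusted p = 8.54e-07).

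GLUL and GLS2 ran the other way. GLUL, which makes glutamine from glutamate and ammonia, held 18.5, 17.8 and 18.3 FPKM in Huh7 and 5.23, 3.98 and 4.603 FPKM in PLC/PRF/5 under DMSO. It was 3.96-fold lower in PLC/PRF/5 (log2 -1.99 ± 0.16, SE; edgeR adjusted p = 9.11e-07). GLS2, the liver-type glutaminase, had 308, 244 and 297 counts in Huh7 and 0, 7 and 20 counts in PLC/PRF/5 under DMSO. Its levels did not overlap, and its reads could be shared with annotated neighbours that overlap it.

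Of the 3 enzymes that open the breakdown of single amino acids, 2 were higher in PLC/PRF/5. HAL, which removes ammonia from histidine, held 0.774, 0.499 and 0.662 FPKM in Huh7 and 3.89, 3.46 and 3.42 FPKM in PLC/PRF/5 under DMSO, a 5.52-fold difference (log2 2.46 ± 0.41, SE; edgeR adjusted p = 2.75e-04). TAT, the tyrosine aminotransferase induced by glucocorticoids in liver, had 77, 96 and 47 counts in Huh7 and 344, 420 and 286 counts in PLC/PRF/5. TDO2, which opens the tryptophan ring on the kynurenine route, had 95, 90 and 96 counts in Huh7 and 76, 88 and 73 counts in PLC/PRF/5, and the groups overlapped once scaled for depth. TAT reads could be shared with its antisense gene, since nothing states whether strand was used in counting.

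The filter on mean FPKM let 5 of the 10 genes into the main test, and all 5 differed between the lines: CPS1, ASS1, ASL and HAL were higher in PLC/PRF/5 and GLUL was lower. The filter averaged over all groups, so a gene could pass through 1 line alone. CPS1 did so through PLC/PRF/5, at 0.105 FPKM in Huh7 under DMSO and 0.083 under lenvatinib, so its call is not independent of the filter. The same holds for HAL, at 0.645 FPKM in Huh7 under DMSO and 0.239 under lenvatinib, an average under the filter. Across all genes tested, 33.9% were called higher and 33.1% lower in PLC/PRF/5, so a call between the lines was common. With edgeR's own filter on low counts (filterByExpr), which kept 9 of the 10 genes, TAT was called higher (log2 2.29 ± 0.37, SE; edgeR adjusted p = 2.12e-04) and GLS2 and ARG1 lower (edgeR adjusted p = 5.50e-04 and 0.0124). ARG1 passed that filter through its Huh7 libraries, so its call is not independent of it either. TDO2 was not called (log2 -0.20, 95% interval -0.74 to 0.34; edgeR adjusted p = 0.531), and 53.4% of genes were called in either direction under that filter.

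Lenvatinib in Huh7 came with higher levels of the cytosolic cycle enzymes ASS1 and ASL and a lower level of HAL. Among the genes under the FPKM filter, TDO2 also rose. ASS1 had CPM values (counts scaled to a common library size, with TMM factors for library composition) of 31.4, 31.0 and 30.7 under DMSO and 72.2, 82.9 and 54.4 under lenvatinib. Every treated library stood above every control, with a spread among treated libraries that the controls did not have. The change was 2.25-fold (log2 1.17 ± 0.12, SE; edgeR adjusted p = 5.82e-05), and by mean FPKM ASS1 moved from rank 4544 to rank 1902.

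ASL had 14.7, 17.7 and 17.8 CPM under DMSO and 20.9, 27.1 and 21.5 under lenvatinib. The groups did not overlap, and the change was 1.38-fold (log2 0.47 ± 0.12, SE; edgeR adjusted p = 0.0144). The ASL call was lost without Huh7 DMSO library 1 (log2 0.38; edgeR adjusted p = 0.0559) and in a fit of the 6 Huh7 libraries alone (edgeR adjusted p = 0.0546). ASS1 was called under all 22 alternatives tried.

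HAL had 4.81, 3.12 and 4.12 CPM under DMSO and 2.52, 0.581 and 1.34 under lenvatinib. All 3 treated libraries lay below the lowest control. HAL fell by 1.44 on the log2 scale (SE 0.41; edgeR adjusted p = 0.0252), which is 2.71-fold. That call was lost without Huh7 DMSO library 1 (edgeR adjusted p = 0.0760), without Huh7 DMSO library 3 (edgeR adjusted p = 0.0610), without Huh7 lenvatinib library 3 (edgeR adjusted p = 0.0736) and in the Huh7 libraries alone (edgeR adjusted p = 0.0883).

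TDO2 had 1.37, 1.23 and 1.29 CPM in Huh7 under DMSO and 3.78, 3.93 and 4.56 under lenvatinib. The groups were far apart for the small spread within each. With the filterByExpr genes the change was log2 1.65 ± 0.25 (SE; edgeR adjusted p = 8.89e-04). The level stayed low, at 0.655 ± 0.073 FPKM under lenvatinib (SD, n = 3).

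GLUL had 280.1, 270.4 and 278 CPM under DMSO and 434, 376 and 321 under lenvatinib. The groups did not overlap, but the test fell short (log2 0.45 ± 0.15, SE; edgeR adjusted p = 0.0546), and the call was gained in 11 of 22 alternatives, among them DESeq2 (adjusted p = 0.0138) and limma-voom (adjusted p = 0.0208). It was also gained without Huh7 lenvatinib library 3 (edgeR adjusted p = 0.0318) or PLC/PRF/5 lenvatinib library 2 or 3 (edgeR adjusted p = 0.0273 and 0.0373). CPS1 was not called (log2 -0.36, 95% interval -1.18 to 0.47; edgeR adjusted p = 0.546) and its groups overlapped. The direction for CPS1 hung on single control libraries, which spanned 41 to 164 counts. Without Huh7 DMSO library 1 the log2 change was 0.23, and without Huh7 DMSO library 3 it was -0.75 with an edgeR adjusted p of 0.0301.

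TAT, GLS2 and ARG1 were not called in Huh7. TAT had 1.11, 1.31 and 0.631 CPM under DMSO and 1.28, 1.70 and 1.81 under lenvatinib (log2 0.64, 95% interval -0.14 to 1.42; edgeR adjusted p = 0.303). ARG1 had 22, 40 and 36 counts under DMSO and 4, 9 and 12 under lenvatinib, so the groups did not overlap, but the interval was wide (log2 -1.96, 95% interval -5.38 to 1.45; edgeR adjusted p = 0.507). GLS2 counts of 308, 244 and 297 under DMSO and 346, 217 and 334 under lenvatinib overlapped. Of the 5 genes in the main test in Huh7, 2 were called higher and 1 lower, beside 11.4% of all genes called higher and 13.3% called lower. With filterByExpr, 14.8% of genes were called in either direction.

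**Figure D2:**
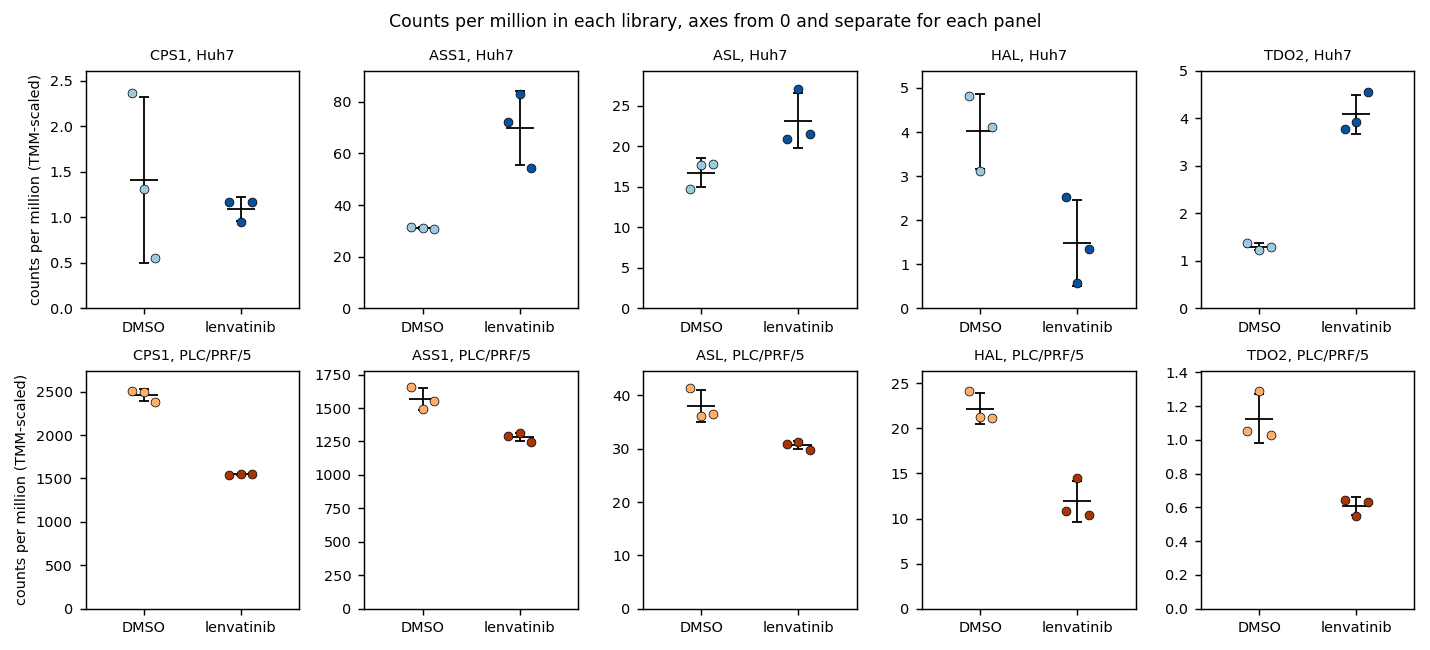
CPM (TMM-scaled counts) of 5 genes in each library, Huh7 in the upper row and PLC/PRF/5 in the lower row, with the mean and 1 SD (n = 3) and a separate axis from 0 in each panel. In Huh7, ASS1, ASL and TDO2 stand higher and HAL lower under lenvatinib, and in PLC/PRF/5 the 3 treated libraries lie below the 3 controls in all 5 panels. GLUL, TAT and GLS2, whose PLC/PRF/5 groups overlapped, are not shown.

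In PLC/PRF/5, CPS1, ASS1, ASL and HAL had lower values in every lenvatinib library than in any DMSO library, but their changes did not pass the threshold. How many of all genes tested separate in this way was not counted. CPS1 had 2511, 2497 and 2386 CPM under DMSO and 1538, 1546 and 1556 under lenvatinib. The libraries within each group nearly coincided, at a ratio of 1.59 between the groups. In the fit with all 12 libraries the log2 change was -0.67 ± 0.28 (SE; edgeR adjusted p = 0.120). That fit shares 1 estimate of the spread per gene with Huh7, where CPS1 counts spanned 41 to 164, and in the 6 PLC/PRF/5 libraries alone the change was -0.66 with an edgeR adjusted p of 1.00e-04. It was also called without Huh7 DMSO library 1 or 3 (edgeR adjusted p = 0.0264 and 0.0108).

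ASS1 in PLC/PRF/5 had 1656, 1492 and 1555 CPM under DMSO and 1289, 1310 and 1248 under lenvatinib (log2 -0.29 ± 0.12, SE; edgeR adjusted p = 0.109). ASL had 41.5, 36.1 and 36.5 under DMSO and 30.8, 31.3 and 29.8 under lenvatinib (log2 -0.31 ± 0.12, SE; edgeR adjusted p = 0.0885). HAL had 24.1, 21.3 and 21.1 under DMSO and 10.8, 14.5 and 10.4 under lenvatinib (log2 -0.90 ± 0.39, SE; edgeR adjusted p = 0.137). None of the 3 had overlapping groups, and in the PLC/PRF/5 libraries alone all 3 were called, with edgeR adjusted p of 0.00662 for ASS1, 0.0470 for ASL and 0.00811 for HAL. With all 4 groups, HAL was also called without Huh7 lenvatinib library 1 or 2 (edgeR adjusted p = 0.0476 and 0.0281), ASS1 without Huh7 lenvatinib library 2 or 3 (edgeR adjusted p = 0.0389 and 0.00537) and ASL without Huh7 lenvatinib library 2 (edgeR adjusted p = 0.0445).

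GLUL in PLC/PRF/5 had 79.5, 60.2 and 69.5 CPM under DMSO and 60.7, 47.9 and 71.3 under lenvatinib, which overlapped (log2 -0.22, 95% interval -0.56 to 0.12; edgeR adjusted p = 0.367). TDO2 had 1.05, 1.29 and 1.03 under DMSO and 0.645, 0.547 and 0.631 under lenvatinib. With the filterByExpr genes this was a log2 change of -0.89 ± 0.25 (SE; edgeR adjusted p = 0.0425), a call that was lost in 19 of 21 alternatives, each of the 12 that left out a library among them. Low counts marked the rest. TAT had 344, 420 and 286 counts under DMSO and 389, 198 and 211 under lenvatinib, GLS2 had 0, 7 and 20 and then 48, 10 and 27, and ARG1 had 0 in the controls and 0, 0 and 15 with the drug. TAT and GLS2 were not called (log2 -0.48 and 1.56; edgeR adjusted p = 0.470 and 0.290), with overlapping groups.

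The main test in PLC/PRF/5 thus called 0 of 5 genes. DESeq2 also called 0, limma on log2(FPKM + 1) called 2, limma on log2(FPKM + 0.1) called 1 and limma-voom called 4. Over all genes the main test called 3133, DESeq2 3936, limma on log2(FPKM + 1) 3619, limma on log2(FPKM + 0.1) 3377 and limma-voom 3470. Of all genes tested, 9.01% were called higher and 11.1% lower, and 11.6% were called in either direction with filterByExpr. The split of all called genes depended on the scaling: 44.9% of them were higher with TMM factors and 63.1% with library totals, while all 5 genes kept their direction.

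**Figure D3:**
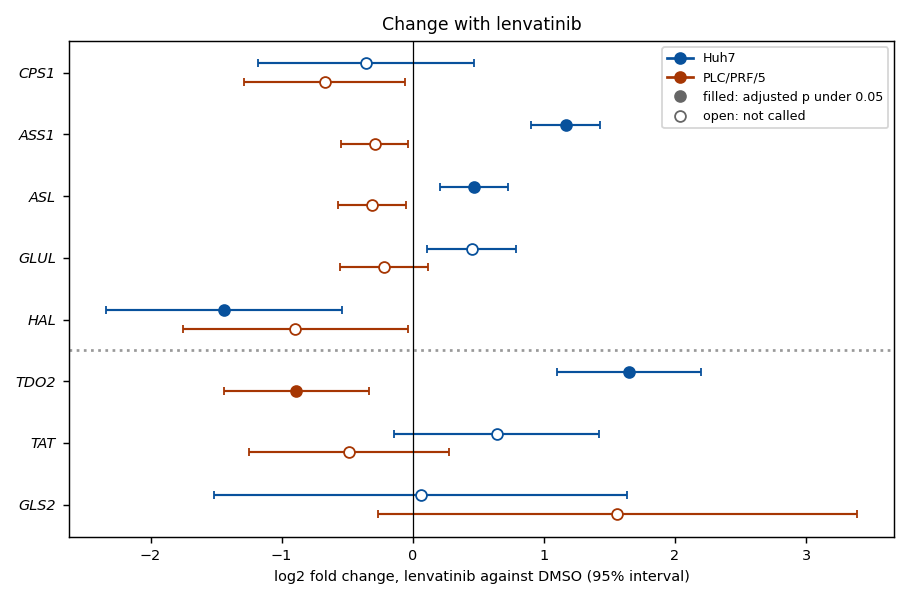
Change with lenvatinib (log2 fold change with its 95% interval, x axis) for 8 genes in Huh7 and PLC/PRF/5, with filled points for an edgeR adjusted p under 0.05. The 3 genes under the dotted line were tested with the filterByExpr genes. ASS1, ASL and TDO2 lie right of 0 in Huh7 and left of 0 in PLC/PRF/5.

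The difference between the lines' responses was tested directly. For ASS1 the log2 change in PLC/PRF/5 was 1.46 below that in Huh7 (difference -1.46 ± 0.17, SE; edgeR adjusted p = 3.02e-04). For ASL the difference was -0.78 ± 0.17 (SE; edgeR adjusted p = 0.0103), and for TDO2, with the filterByExpr genes, -2.54 ± 0.36 (SE; edgeR adjusted p = 9.93e-04). These 3 genes had higher values under lenvatinib in all 3 Huh7 libraries and lower values in all 3 PLC/PRF/5 libraries. Within PLC/PRF/5 the main test called neither ASS1 nor ASL, and the TDO2 call was lost in 19 of 21 alternatives.

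For GLUL the difference was -0.67 ± 0.21 (SE; edgeR adjusted p = 0.0649), and it was called without Huh7 lenvatinib library 3 (edgeR adjusted p = 0.0392), PLC/PRF/5 DMSO library 2 (edgeR adjusted p = 0.0494) or PLC/PRF/5 lenvatinib library 3 (edgeR adjusted p = 0.0306). For HAL, lower in the treated libraries of both lines, it was 0.54 (95% interval -0.69 to 1.77; edgeR adjusted p = 0.591), and for CPS1 -0.31 (95% interval -1.34 to 0.71; edgeR adjusted p = 0.731), intervals wide enough to hold a difference of more than 1 log2 unit. Of all genes tested, 14.4% were called for this difference, and 8.19% with filterByExpr. The 2 genes called among the 5 in the main test were ASS1 and ASL.

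Around the 10 genes, 8 lists of other enzymes and carriers of amino acid breakdown held 65 genes, of which 64 were in the table and 53 were tested. In Huh7, 15 were higher with lenvatinib, 8 were lower and 30 were not called, with a median log2 change of 0.12 beside 0.0018 over all genes. For PLC/PRF/5, 7 were higher, 5 were lower and 41 were not called, with a median of 0.047 beside -0.0075 over all genes. Without Huh7 DMSO library 1 the count higher in Huh7 was 9, and without PLC/PRF/5 lenvatinib library 3 the count higher in PLC/PRF/5 was 4. That count was 14 with limma on log2(FPKM + 1) and 11 with DESeq2, with limma on log2(FPKM + 0.1) and in the PLC/PRF/5 libraries alone, and the count lower there was 8 with DESeq2 and 9 with limma-voom. The percentages of all genes called, given above, are the background for these counts. Between the lines under DMSO, 28 of the 53 were higher in PLC/PRF/5, 17 were lower and 8 were not called.

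Among the partners of the urea cycle, SLC25A15, the mitochondrial ornithine carrier that feeds OTC, was 17.1-fold higher in the PLC/PRF/5 controls than in the Huh7 controls (edgeR adjusted p = 3.35e-11). With lenvatinib in PLC/PRF/5 it fell by 0.48 on the log2 scale (edgeR adjusted p = 9.94e-04). ODC1, which draws ornithine off into polyamines, fell by 0.84 (edgeR adjusted p = 1.50e-05). They were the 2 called of 6 tested in that list, and their direction was that of CPS1, ASS1 and ASL, which were not called in the same fit. NAGS, which makes the activator that CPS1 needs, had a log2 value of -0.91 in PLC/PRF/5 and was not called (edgeR adjusted p = 0.175).

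In the glutamine and glutamate list, 1 gene was higher and 3 were lower of 6 tested in Huh7. GLUD1, which releases ammonia from glutamate, rose by 0.87 on the log2 scale and GLUD2 fell by 0.94 (edgeR adjusted p = 5.53e-04 and 4.84e-04). They are near-identical copies, and whether reads of one were counted for the other was not tested.

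On the tyrosine route, which TAT opens, HGD, the dioxygenase that opens the homogentisate ring, rose by 0.55 on the log2 scale with lenvatinib in Huh7 (edgeR adjusted p = 0.00252). Its rise of 0.34 in PLC/PRF/5 (edgeR adjusted p = 0.0363) was lost without PLC/PRF/5 DMSO library 2 or 3, any 1 PLC/PRF/5 lenvatinib library, Huh7 DMSO library 1 or 3 or Huh7 lenvatinib library 1 (edgeR adjusted p from 0.0502 to 0.115).

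Beyond TDO2 on the kynurenine route, KYNU, the kynureninase, was 69.1-fold higher in the PLC/PRF/5 controls. With lenvatinib in PLC/PRF/5 it fell from 121 ± 5.198 to 44.1 ± 9.24 CPM (SD, n = 3 each; log2 -1.46 ± 0.27, SE; edgeR adjusted p = 0.00420). HAAO, the next dioxygenase of the route, had 2121 counts over the Huh7 DMSO libraries and 0 over the PLC/PRF/5 DMSO libraries, at least 689-fold higher in Huh7 against a floor of 3 counts over the group. In Huh7 HAAO rose by 0.82 with lenvatinib (edgeR adjusted p = 0.0192), a call lost without any 1 Huh7 DMSO library or Huh7 lenvatinib library 1 or 2 (edgeR adjusted p from 0.0603 to 0.0649). On the histidine route AMDHD1, an amidohydrolase after HAL, fell by 0.68 in Huh7 (edgeR adjusted p = 0.00847).

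In the list of serine, glycine, methionine and cysteine breakdown, 5 of 11 tested genes were higher and 1 was lower in Huh7. SDSL, a serine dehydratase-like enzyme, rose by 1.6 and CTH, the cystathionine lyase, by 0.85 on the log2 scale (edgeR adjusted p = 2.20e-05 and 4.79e-04). MAT1A, the liver form of methionine adenosyltransferase, had from 0 to 11 counts in the Huh7 DMSO libraries and from 142 to 182 under lenvatinib. CBS, whose reads may be shared with a copy, rose by 0.67 in both lines (edgeR adjusted p = 0.00182 in Huh7 and 0.00253 in PLC/PRF/5).

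Of the branched-chain genes, 4 of 15 were higher and 2 lower in Huh7. ACADSB, an acyl-CoA dehydrogenase of isoleucine breakdown, was higher with the smallest adjusted p (log2 1.15 ± 0.11, SE; edgeR adjusted p = 4.56e-05). In the lysine and proline list, AASS, which opens lysine breakdown, fell by 0.95 in Huh7 (edgeR adjusted p = 2.86e-06). ALDH4A1, which completes proline breakdown, rose in both lines, by 1.198 in Huh7 and 0.84 in PLC/PRF/5 (edgeR adjusted p = 5.98e-04 and 0.00653). The plot by list shows that calls in both directions stood beside genes that were not called.

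**Figure D4:**
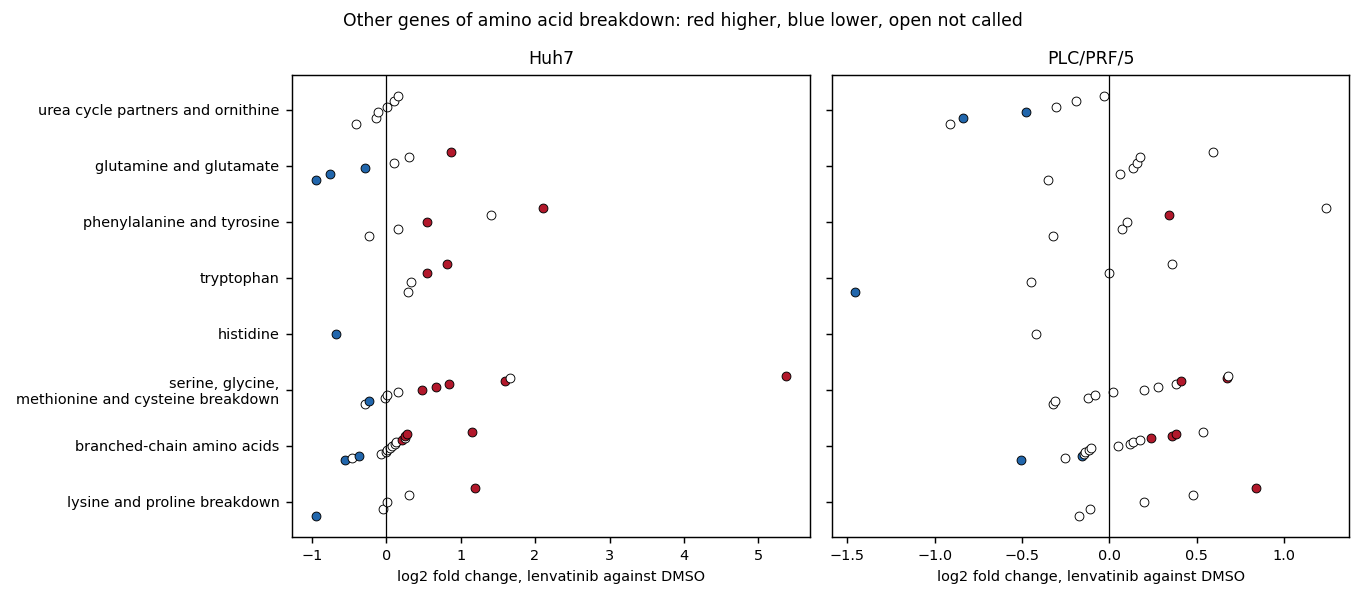
Log2 fold change with lenvatinib for the 53 tested genes of 8 lists, 1 point per gene, in Huh7 and in PLC/PRF/5 on separate axes, red for called higher, blue for called lower and open for not called. In Huh7, 15 points are red and 8 blue, and the point beyond 5 is MAT1A. PLC/PRF/5 has 7 red and 5 blue points.

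Transcription factors known to drive these enzymes in liver were listed as well. In Huh7, 5 of 6 tested were higher with lenvatinib, beside 11.4% of all genes. CEBPA, a C/EBP factor that switches on urea cycle genes in mouse liver, rose from 148 ± 8.23 to 295 ± 56.5 CPM (SD, n = 3 each; log2 0.99; edgeR adjusted p = 1.71e-04). KLF15, a regulator of amino acid breakdown in mouse liver, rose by 1.05 (edgeR adjusted p = 0.00707). CEBPB rose by 0.62 (edgeR adjusted p = 0.00825), a call lost in the Huh7 libraries alone (edgeR adjusted p = 0.0509). NR3C1, the glucocorticoid receptor, rose by 0.31 (edgeR adjusted p = 0.0185), a call lost without Huh7 DMSO library 1 or 3 or Huh7 lenvatinib library 3 (edgeR adjusted p = 0.0707, 0.0623 and 0.0628). The fifth gene was HNF4A, named after its value was seen (log2 0.62; edgeR adjusted p = 0.0383). In PLC/PRF/5, 1 of 6 was called, CEBPA at a log2 change of 0.74 (edgeR adjusted p = 0.00219; limma-voom adjusted p = 0.0883). Between the controls, 3 of the 6 were lower in PLC/PRF/5 and 2 were higher, beside 33.1% and 33.9% of all genes. CEBPA was 14.4-fold and HNF4A 2.50-fold lower (edgeR adjusted p = 1.44e-09 and 1.13e-04). CEBPB was 5.70-fold and KLF15 5.09-fold higher (edgeR adjusted p = 5.9e-08 and 5.22e-06). Their part in the enzyme levels was not tested. For KLF15 the difference between the lines' changes was -1.04 (edgeR adjusted p = 0.0547).

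GLUL in pericentral hepatocytes depends on beta-catenin, and other targets of that route were compared with it. In Huh7, 4 of the 5 tested were lower with lenvatinib, beside 13.3% of all genes: LGR5 fell by 1.71, SP5 by 0.98, TBX3 by 0.47 and ZNRF3 by 0.43 on the log2 scale (edgeR adjusted p = 2.80e-05, 0.0267, 1.55e-04 and 5.36e-04). The SP5 call was lost without Huh7 DMSO library 1 or 2 or Huh7 lenvatinib library 2 or 3 (edgeR adjusted p from 0.0666 to 0.0843). AXIN2 had a log2 value of 0.31 and was not called (edgeR adjusted p = 0.339). GLUL itself had a log2 value of 0.45 there. The difference between lines was called for LGR5 (1.43), ZNRF3 (0.37) and TBX3 (0.33), with edgeR adjusted p of 0.00160, 0.0148 and 0.0177.

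The carbamoyl phosphate synthetase of pyrimidine synthesis, CAD, which CPS1 resembles, had another pattern. It held 4.91 ± 0.18 FPKM in Huh7 and 14.8 ± 0.16 FPKM in PLC/PRF/5 under DMSO (SD, n = 3 each), rose by 0.30 on the log2 scale with lenvatinib in Huh7 (edgeR adjusted p = 0.0181; 0.0664 without Huh7 DMSO library 1) and had a log2 value of -0.0090 in PLC/PRF/5 (edgeR adjusted p = 0.962), where its sign turned with the scaling (0.069 with library totals).

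Facts of the libraries that move with the groups are as follows. Of the 7 hepatocyte markers, the summed FPKM was 811 to 845 in Huh7 under DMSO, 969 to 1353 under lenvatinib, 381 to 422 in PLC/PRF/5 under DMSO and 352 to 360 under lenvatinib, with none of the 7 at 0 throughout a group. Between the controls 4 of the 7 were lower in PLC/PRF/5, with ALB 298-fold lower (edgeR adjusted p = 7.02e-11), and 2 were higher, with APOB 8.55-fold higher (edgeR adjusted p = 2.25e-07). With lenvatinib in Huh7, 4 of the 7 were higher, ALB by 0.65 on the log2 scale (edgeR adjusted p = 0.00312), and 2 were lower, TTR by 1.52 and AFP by 0.45 (edgeR adjusted p = 0.00195 and 0.00532). The 3 cholangiocyte markers summed to between 167 and 180.2 FPKM in Huh7 and to between 0.529 and 1.22 in PLC/PRF/5. The 2 blood markers summed to at most 1.503 FPKM in Huh7 and to between 10.6 and 18.1 in PLC/PRF/5. PTPRC, 1 of the 2, averaged 0.013 FPKM over the 12 libraries, so nearly all of the sum came from the other. Endothelial markers summed to at most 1.16 and fibroblast markers to at most 4.26 FPKM in any library. The mitochondrial share of counts was 5.57 to 5.69% in Huh7 under DMSO, 6.33 to 6.88% under lenvatinib, 10.3 to 10.6% in PLC/PRF/5 under DMSO and 10.99 to 11.28% under lenvatinib. Their part in the results was not tested.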

How the data were processed

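Per the labels' protocols, RNA was taken from the cultured cells with a column kit, purified mRNA was broken up and copied from random hexamers, and single-end reads of 50 bases were made on a BGIseq500. The authors deposited 1 table with a read count and an FPKM value per gene and library, per the file headers. The submitters' processing notes name HISAT2 and hg 19. Nothing states the counting program, annotation, strand setting or read filters. The 12 other columns of the table, of another cell line, were not used, and 0 lines named no gene.

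The counts were tested as deposited with edgeR 4.0.16 (limma 3.58.1, DESeq2 1.42.0, R 4.3.3): TMM factors, 1 coefficient per group over 12 libraries in 4 groups, robust quasi-likelihood F test, and Benjamini-Hochberg adjustment over all genes tested at a threshold of 0.05. Genes with an average of 0.5 FPKM or more were tested (15587). The alternatives were library totals, RLE factors, filterByExpr (24797 genes), no filter (38809 genes), DESeq2, limma on log2(FPKM + 1) and log2(FPKM + 0.1), limma-voom, a replicate block, only the groups compared, and each library left out. For the genes that pass filterByExpr alone (ARG1, GLS2, TAT, TDO2), the other alternatives on those genes were chosen after seeing the data. Total counts ran from 70236175 to 75820318, and a count of 0 was set against a floor of 3 counts, which covers counting error only. The biological coefficient of variation was 0.234.

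The 10 genes and all gene lists were chosen with earlier results of these data known. The text names all 10 genes and, per list and comparison, up to 4 called genes with the smallest adjusted p and a mean of at least 1 FPKM, with the paralogs ARG2 and CAD. Some genes of the lists are counted but not reported here by name. A few genes outside that rule are named for their role or after their values were seen (NAGS, AXIN2, HNF4A, SDS). FPKM of the 10 genes matched counts per length and depth within 0.146 on the log2 scale in libraries with at least 20 counts. Promoters come from RefSeq (GRCh38.p14), and overlaps and strands from GENCODE 29, whose build differs from that of the files. The test was checked on simulated counts.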

Additional observations from a re-analysis of the deposited data

Results flagged for a closer look

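The change with lenvatinib differed between PLC/PRF/5 and Huh7, by a test of the difference itself, for the 18 genes given here. The values are the log2 change in PLC/PRF/5 minus that in Huh7, each past the edgeR adjusted threshold of 0.05. They come from the 10 genes, the 8 lists and the beta-catenin list. List genes were named for being called, so the count follows from that rule. Over all genes tested, 14.4% were called for this difference, and 8.19% with filterByExpr. The 7 hepatocyte markers were left out, of which 2 had a called positive difference and 2 a called negative one. Of the 10 genes the report is about, ASS1 stood at -1.46, ASL at -0.78 and TDO2 at -2.54. All 3 had log2 values above 0 in Huh7 and below 0 in PLC/PRF/5, where ASS1 and ASL were not called in the main test.

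The log2 change, not the level, was also lower in PLC/PRF/5 than in Huh7 for the following genes. These were the ornithine enzymes and carriers ODC1 (-0.70) and SLC25A15 (-0.37) and the glutamate dehydrogenase GLUD1 (-0.69). On the tryptophan route AFMID stood at -0.9999 and KYNU at -1.79. In the other lists SDSL stood at -1.22, MAT1A at -4.69, ACADSB at -1.27 and MCCC1 at -0.50. The MAT1A value rests on Huh7 DMSO libraries with 0 to 11 counts, and was -9.62 without Huh7 DMSO library 2.

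The log2 change was higher in PLC/PRF/5 than in Huh7 for GOT1 (0.42), HIBCH (0.54) and AASS (0.84). The same held for the beta-catenin targets LGR5 (1.43), ZNRF3 (0.37) and TBX3 (0.33), which were lower with lenvatinib in Huh7 and not called in PLC/PRF/5.

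Of 21 alternatives, the SLC25A15 call was lost in 14, among them library totals (edgeR adjusted p = 0.0585), limma-voom (adjusted p = 0.0538) and no filter (edgeR adjusted p = 0.0575). The MCCC1 call was lost in 11, among them no filter (edgeR adjusted p = 0.0799) and filterByExpr (edgeR adjusted p = 0.0515). The GLUD1 call was lost in 3, each without 1 library (edgeR adjusted p from 0.0510 to 0.0545).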

How the results depend on the processing

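Of the 5 genes tested, 3 were called in Huh7, 0 in PLC/PRF/5, 2 for the difference and 5 between the controls. In PLC/PRF/5 the count was 2 with limma on log2(FPKM + 1), 1 on log2(FPKM + 0.1), 4 with limma-voom and 4 with only the groups compared. Over all genes these 4 fits called 3619, 3377, 3470 and 3020, beside 3133 in the main test. Without 1 library the count of the 5 genes called ran from 0 to 3 in PLC/PRF/5 and from 1 to 4 in Huh7, where 1 was the count without Huh7 DMSO library 1. The difference and the control comparison kept counts within 1.5 times of the main ones. The cause was not tested.

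The replicate block gave 4 genes in Huh7, 0 in PLC/PRF/5, 3 for the difference and 5 between the controls, and 3187, 2359, 1647 and 8415 over all genes. GLUL was called with the block in Huh7 (adjusted p = 0.0331) and for the difference (0.0421). Among the called genes lost with the block were SLC25A15 (0.0810), KYNU (0.0713), HIBCH (0.0503), ZNRF3 (0.0608) and TBX3 (0.0789) for the difference. Others were HAAO (0.0527) and NR3C1 (0.0696) in Huh7, and TDO2 (0.129), HGD (0.0691) and CTH (0.0552) in PLC/PRF/5. The count of list genes called higher in PLC/PRF/5 was 4 with the block. Same-numbered libraries had residual correlations of -0.0119 to 0.0679. Differently numbered libraries were not compared, so whether same-numbered libraries shared a culture or batch cannot be told.

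Signs turned for MAT1A and for values that were not called. The HAL difference was -0.19 with limma on log2(FPKM + 1), and the MAT1A difference, called at -4.69, was 0.029 there. CAD in PLC/PRF/5 was 0.069 with library totals, 0.066 and 0.070 with limma on log2(FPKM + 1) and log2(FPKM + 0.1), 0.0067 with only the groups compared and 0.011 with no filter. Without 1 library, CPS1 ran from -0.75 to 0.23 in Huh7 and from -0.91 to 0.074 for the difference, GLS2 from -0.058 to 0.25 and ARG2 from -0.071 to 0.12 in Huh7, and CAD from -0.024 to 0.0064 in PLC/PRF/5. Genes with few counts (ARG1, OTC, GLS2) are limited by depth.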

Other observations

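PLC/PRF/5 lenvatinib library 3 held 15 counts of ARG1 and 28 of OTC, while the other 2 libraries of that group held 0 and 0 of ARG1 and 6 and 4 of OTC. SDS, the serine dehydratase of liver, named after its values were seen, had from 0 to 6 counts in the Huh7 DMSO libraries and from 3097 to 3480 in the PLC/PRF/5 DMSO libraries.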
